A study of Mus musculus with 9 samples.

Results

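The 9 genes described here encode proteins that take up or bind FAs in the liver: the FA translocase *Cd36*, the FA transport proteins *Slc27a2*, *Slc27a4* and *Slc27a5*, the FA binding proteins *Fabp1*, *Fabp2*, *Fabp4* and *Fabp5*, and *Got2*, a mitochondrial aspartate aminotransferase that has also been described as a plasma membrane FA binding protein. They were found by their symbols among the 51912 genes of the deposited table, and each symbol belonged to 1 gene. Livers of 9 fasted mice had been sequenced, all of the genotype *Apoe*-/- *Ndst1* f/f *Alb-Cre*+ on a C57Bl/6 background. All 9 therefore lacked apoE, an apolipoprotein through which the liver clears triglyceride (TG)-rich lipoproteins, and carried a Cre recombinase driven by the albumin promoter, which is active in hepatocytes, to inactivate *Ndst1*, a sulfotransferase of heparan sulfate. Which cells of these livers had lost *Ndst1* was not examined here. Of these mice, 5 were given an antisense oligonucleotide (ASO) against apoC-III and 4 a control ASO, each at 50 mg/kg/week for 8 weeks. The controls carried the same deletions and also received an ASO. Age and sex are not given beside the RNA sequencing in the sources used here, and neither is the diet. The comparison asks whether lowering apoC-III, an apolipoprotein that inhibits lipoprotein lipase, went with a change in the hepatic genes through which FAs enter the cell and are carried within it.

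FAs reach the liver bound to albumin or are released from TGs by lipases. CD36 is a membrane glycoprotein that binds long-chain FAs and moves them into cells, and it is more abundant in adipocytes, macrophages, muscle and capillary endothelium than in the normal hepatocyte. The SLC27 family (FA transport proteins) combines transport with acyl-CoA synthetase activity, which traps FAs as CoA esters. Within hepatocytes, FABP1 (liver-type FA binding protein) keeps FAs in solution and delivers them to mitochondria, peroxisomes, the endoplasmic reticulum and the nuclear receptor PPARα. FABP2, FABP4 and FABP5 are best known from enterocytes, from adipocytes and macrophages, and from epidermis and macrophages. Several of these genes are targets of PPARα, which with its partner RXR binds a direct repeat of AGGTCA with 1 base between the repeats (DR1).

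Stretches of 30 bases that hold the best match to DR1 are shown for *Fabp1*, the member with the highest level, and for *Cd36* and *Slc27a2*, the pair of members with the highest Pearson's r from liver to liver. The promoter sequences and their transcription start sites are those of RefSeq (GRCm38.p6), whose table held 6 of the 9 members. The motif, AGGTCA repeated with any base (N) between, was searched on both strands of the 250 bases before each start site, and the matching bases are in capitals, printed on the strand of the gene. In all 3 stretches the match lay on the opposite strand.
Fabp1 promoter: acaatcacTGACCTATGGCCTatatctgag
Cd36 promoter: tggttctcTGGCCTCTGACTTacttggatg
Slc27a2 promoter: acagcaccACGCCTTTGACCTtttcaacgt
The *Fabp1* stretch lies at chr6:71199804-71199833 on the plus strand and departs from the motif at 1 base. At most 1 such mismatch was found in 0.484% of 32851 promoter windows of the same length. The *Cd36* stretch, at chr5:17835938-17835967 on the minus strand, departs at 2 bases, and at most 2 were found in 3.24% of windows. The *Slc27a2* stretch, at chr2:126552789-126552818 on the plus strand, departs at 3 bases, and 21.3% of windows held a match at least as close. The best matches of the other members in that table, which are not printed, depart at 3 bases (*Fabp2*), 4 bases (*Got2*) and 5 bases (*Slc27a4*). In the Ensembl annotation the *Fabp1* match ends just before the first exon, the *Slc27a2* stretch falls in the 5′ UTR of a longer first exon, and the *Cd36* stretch lies in an intron of longer transcripts. These matches describe letters of the genome, and no binding was measured.

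A further pair of sequences bears on how well reads can be given to *Fabp5*, the member with the largest difference between the groups. The mouse genome holds several processed pseudogenes of *Fabp5*, of which *Gm6166* is the closest. The first 60 coding bases of *Fabp5* and the matching bases of *Gm6166* (GENCODE M21) are given with the base that differs in capitals.
Fabp5: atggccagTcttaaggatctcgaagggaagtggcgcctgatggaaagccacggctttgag
Gm6166: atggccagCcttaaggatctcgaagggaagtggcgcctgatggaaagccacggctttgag
Only 1 of these 60 positions differs, and 7 of 409 aligned positions differ over the whole match. *Fabp5* lies on chromosome 3 (10012548 to 10016607, plus strand, GRCm38) and *Gm6166* on chromosome 9 (57483963 to 57484371).

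The authors deposited transcripts per 1000000 (TPM), which correct each gene for its length and express it as a share of its library. TPM keeps no sequencing depth, and the depth behind each value is therefore unknown. The 7SL RNA genes took 64.0% to 83.6% of the TPM of a liver, and the share of nuclear protein-coding genes was 3.04% to 5.31% in the apoC-III ASO group and 1.94% to 8.64% in the control ASO group. Values below are therefore normalized TPM, in which the nuclear protein-coding genes of each liver were rescaled to 1000000 and divided by a median-of-ratios factor. Control ASO replicate 4 stood apart, with a factor of 0.496 against 0.930 to 1.44 in the other livers and the lowest protein-coding share. It had the highest value of the 9 livers for 4 members (*Cd36*, *Slc27a2*, *Slc27a5* and *Fabp5*) and the lowest for *Slc27a4*, so the differences are also given without it. Before scaling it had the lowest TPM of the 9 livers for each of these genes, at 0.441 for *Cd36*, 0.316 for *Fabp5* and 0.0154 for *Slc27a4*. Its normalized values therefore rest on very low TPM for those 3 genes. The hepatocyte markers were abundant in every liver, with summed levels of 29439 to 64329 and 40432 to 56939 normalized TPM in the apoC-III ASO and control ASO groups, and 9 of 10 had a log2 fold change below 0 (median −0.23, with *Asgr1* at an unadjusted p of 0.0461 and an adjusted p of 0.876 from limma with Benjamini-Hochberg adjustment). In whole liver, fewer cells of a type and less RNA per cell cannot be told apart.

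*Apoc3*, the target of the ASO, checked the labels. It stood at 379, 431, 334, 622 and 485 normalized TPM in apoC-III ASO livers and at 3370, 3169, 3479 and 4291 in control ASO livers. Every treated liver was far below every control, with a difference of −3.01 ± 0.234 (SE) on the log2 scale (adjusted p = 3.88e-04, limma's trend method with Benjamini-Hochberg adjustment).

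None of the 9 FA uptake and binding genes differed between apoC-III ASO and control ASO livers at the thresholds of the study. These are an adjusted p under 0.05 and more than 1.5-fold. The study applied them to read counts with another method (DESeq2), so the number of genes called here is not its number. All 9 members passed the filter of a mean of at least 1 normalized TPM. They were tested among 11968 protein-coding genes, of which 2, or 0.0167%, were called, both lower. These were *Apoc3* and *Anpep*, a membrane aminopeptidase that is named here because its value was seen, with a mean of 12.1 ± 1.82 (SD, n = 5) against 68.1 ± 35.6 (SD, n = 4) normalized TPM and an adjusted p of 0.0483 from limma. The *Anpep* call was lost for 7 of the 9 livers when each was left out, and the *Apoc3* call for 0. At an unadjusted p under 0.05 stood 1 of the 9 members, *Fabp5*, and 667 of the 11968 genes (5.57%). Of the members, 4 had a log2 fold change above 0 and 5 below 0, with a median of −0.03 against −0.00127 over all genes tested.

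**Figure D1:**
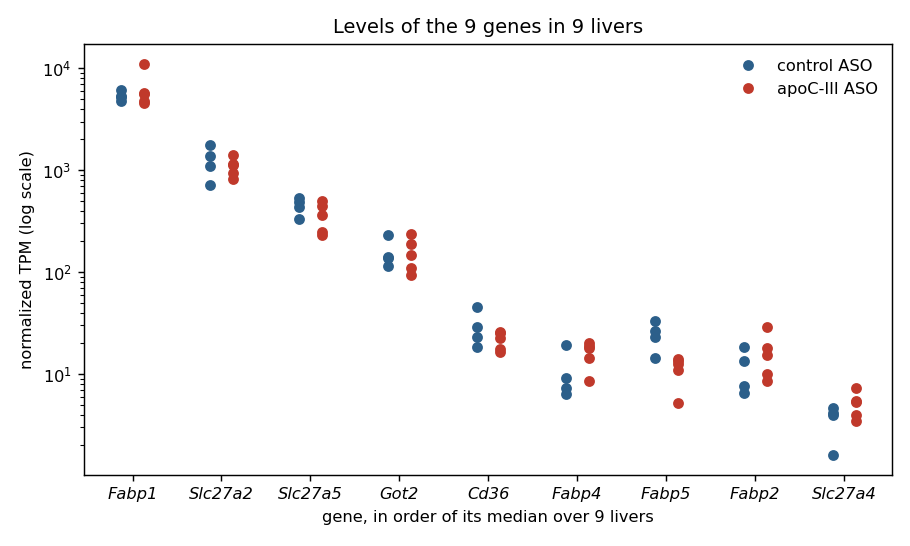
Normalized TPM (log axis) of the 9 genes in each of the 9 livers, in order of the median; blue points are the 4 control ASO livers and red points the 5 apoC-III ASO livers. Fabp1 lies above every other gene in every liver, and Slc27a4 is the lowest by its median.

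The members spanned 3 orders of magnitude, and the plot of levels by gene shows the same order at the top in both groups. TPM is corrected for length, so levels can be set beside each other between genes. *Fabp1* had the highest median, 5353 normalized TPM over the 9 livers, above 99.9% of the genes tested by its mean. *Slc27a2* followed at a median of 1132 and *Slc27a5* at 437, and neither the ranges of *Fabp1* and *Slc27a2* nor those of *Slc27a2* and *Slc27a5* overlapped. *Got2*, with a median of 140, was below *Slc27a5* in all 9 livers, although their ranges overlapped. *Cd36* came next at 22.9, and its range did not overlap that of *Got2*. *Fabp4*, *Fabp5* and *Fabp2* had medians of 14.3, 14.0 and 13.5 normalized TPM, and their order changed from liver to liver: *Fabp4* was above *Fabp5* in 4 of 9 livers and *Fabp5* above *Fabp2* in 6 of 9. *Slc27a4* was the lowest at a median of 4.13, below *Fabp2* in all 9 livers.

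The translocase *Cd36* (ENSMUSG00000002944; chromosome 5, 17781690 to 17888801, minus strand) stood at 16.5, 22.5, 17.7, 25.9 and 25.0 normalized TPM in the apoC-III ASO livers. In the control ASO livers it stood at 22.9, 18.6, 28.7 and 45.8. The treated livers lay within or just below the range of the first 3 controls, and control ASO replicate 4 was the highest of all. The means were 21.5 ± 4.24 (SD, n = 5) and 28.99 ± 11.9 (SD, n = 4), and the log2 fold change was −0.35 (95% interval −0.95 to 0.24, adjusted p = 0.914 from limma). Without control ASO replicate 4 it was −0.11, and with protein-coding rescaling but no factors it turned to 0.11.

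*Got2* (ENSMUSG00000031672; chromosome 8, 95864134 to 95888547, minus strand) makes the mitochondrial aminotransferase of the malate-aspartate shuttle. Its values were 148, 109, 92.9, 239 and 191 normalized TPM with the apoC-III ASO and 136, 140, 115 and 231 with the control ASO. Each group held livers at both ends of the range, and the means were nearly equal at 156 ± 59.8 (SD, n = 5) and 156 ± 51.4 (SD, n = 4). Its log2 fold change was −0.03 (95% interval −0.71 to 0.65, adjusted p = 0.998 from limma), and its sign changed with the scaling and with 3 of the 9 livers left out (0.18 without control ASO replicate 4). *Got2-ps1*, a processed pseudogene on chromosome 5 that matches *Got2* at 99.1% of 1293 aligned bases, was listed at no more than 0.1002 TPM as deposited, and adding the *Got2* copies on the same strand left the log2 fold change at −0.03. Of the malate-aspartate shuttle, 6 of 6 genes in the list were tested, none was called, 3 had a log2 fold change above 0 and 3 below, and the median was −0.02. The smallest p belonged to *Slc25a13*, the aspartate/glutamate carrier citrin, with means of 77.2 ± 11.4 (SD, n = 5) and 93.0 ± 20.7 (SD, n = 4) normalized TPM in apoC-III ASO and control ASO livers (adjusted p = 0.924 from limma).

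**Figure D2:**
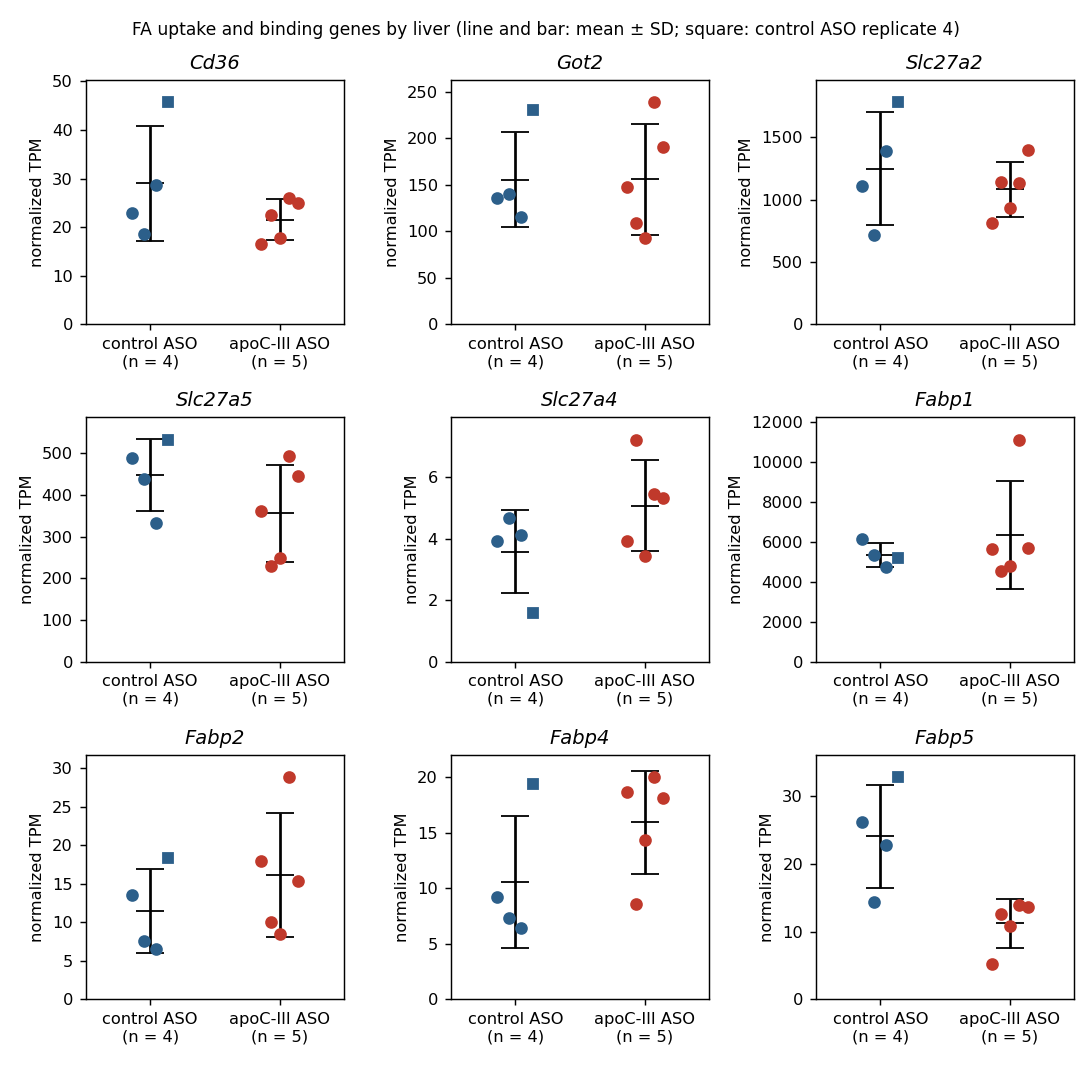
Normalized TPM of each gene in every liver (vertical axes start at 0), with the mean ± SD of the 4 control ASO livers (blue) and 5 apoC-III ASO livers (red); the square is control ASO replicate 4. The groups overlap for every gene but Fabp5, whose highest treated liver (14.0) is just below the lowest control (14.4).

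*Slc27a2* (FATP2; ENSMUSG00000027359; chromosome 2, 126552407 to 126588243, plus strand) encodes a very long-chain acyl-CoA synthetase of peroxisomes and the endoplasmic reticulum that also serves uptake of FAs at the hepatocyte surface. It measured 815, 1140, 934, 1132 and 1396 normalized TPM in apoC-III ASO livers and 1108, 718, 1390 and 1784 in control ASO livers. The lowest and the highest of the 9 livers were both controls. The log2 fold change was −0.15 (95% interval −0.78 to 0.47, adjusted p = 0.974 from limma) and became 0.05 without control ASO replicate 4 and 0.12 to 0.33 under 3 other scalings. A lincRNA on the opposite strand, *Gm26697*, overlaps the gene and was listed at no more than 0.0597 TPM as deposited.

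*Slc27a5* (FATP5; ENSMUSG00000030382; chromosome 7, 12988346 to 12998192, minus strand) is specific to liver and serves both FA uptake and the activation of bile acids to CoA esters before they are joined to taurine or glycine. Its values were 360, 230, 248, 494 and 444 normalized TPM with the apoC-III ASO and 489, 437, 333 and 532 with the control ASO. Replicates 2 and 3 of the treated group were lower than any control, and the other 3 treated livers were within the control range. The log2 fold change was −0.38 (95% interval −0.98 to 0.23, adjusted p = 0.907 from limma) and −0.29 without control ASO replicate 4, and it turned to 0.10 without factors.

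*Slc27a4* (FATP4; ENSMUSG00000059316; chromosome 2, 29802634 to 29817522, plus strand), the main FATP of the small intestine, was low in every liver. It stood at 3.94, 7.21, 3.44, 5.44 and 5.32 normalized TPM in treated livers and at 3.92, 4.67, 4.13 and 1.60 in controls. The 3 highest values were in treated livers and the lowest in control ASO replicate 4. Its log2 fold change of 0.43 (95% interval −0.21 to 1.07, adjusted p = 0.902 from limma) came to 0.19 without that liver. Within the 6 genes of the family, *Slc27a2* held 74.6% ± 5.80 (SD, n = 5) of the summed level in apoC-III ASO livers and 71.5% ± 8.25 (SD, n = 4) in control ASO livers, and *Slc27a5* held 24.3% ± 5.99 and 27.4% ± 8.09. *Slc27a4* accounted for 0.351% ± 0.0965 and 0.237% ± 0.135.

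*Fabp1* (ENSMUSG00000054422; chromosome 6, 71199827 to 71205023, plus strand) made up 98.5% to 99.4% of the summed level of the 9 *Fabp* genes in every liver. It stood at 5616, 4561, 4767, 11110 and 5708 normalized TPM with the apoC-III ASO and at 6136, 5353, 4723 and 5194 with the control ASO. A single liver, apoC-III ASO replicate 4, was far above the other 8, which lay between 4561 and 6136. On the log2 scale the difference was 0.17 (95% interval −0.47 to 0.81, adjusted p = 0.969 from limma), and it was −0.05 without apoC-III ASO replicate 4 and 0.16 without control ASO replicate 4.

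*Fabp2* (ENSMUSG00000023057; chromosome 3, 122895072 to 122899506, plus strand), the intestinal form, was found at 18.0, 9.996, 8.48, 28.8 and 15.3 normalized TPM in treated livers. The controls had 13.5, 7.61, 6.51 and 18.3. The groups differed by a log2 fold change of 0.44 (95% interval −0.39 to 1.27, adjusted p = 0.925 from limma), and with each liver left out it ranged from 0.21 (without apoC-III ASO replicate 4; 0.23 without control ASO replicate 3 and 0.30 without control ASO replicate 2) to 0.69 (without control ASO replicate 4). Markers of enterocytes were summed at 42.8 to 130 and 41.7 to 91.7 normalized TPM in the apoC-III ASO and control ASO groups. Of the 6 markers, 3 were tested and had log2 fold changes above 0. These were *Sis* (1.23, unadjusted p = 0.0338, adjusted p = 0.876 from limma), *Apoa4* (0.32) and *Lgals4* (0.28). *Sis* stood at 0.725 to 12.2 normalized TPM over the 9 livers. The others were near or at 0: *Vil1* reached 1.11 and *Cdh17* 0.132 normalized TPM at most, and *Krt20* was listed at 0 in all 9 livers. The part of such cells in the *Fabp2* values was not tested.

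*Fabp4* (ENSMUSG00000062515; chromosome 3, 10204088 to 10208576, minus strand), the form of adipocytes and macrophages, stood at 18.7, 8.59, 14.3, 20.01 and 18.1 normalized TPM in apoC-III ASO livers. In control ASO livers it stood at 9.19, 7.34, 6.42 and 19.4. Replicates 1 to 3 of the controls were below 4 of the 5 treated livers, whereas control ASO replicate 4 was among the highest. As deposited, that replicate had the lowest *Fabp4* of the 9 livers, at 0.187 TPM. The means were 15.9 ± 4.62 (SD, n = 5) and 10.6 ± 5.97 (SD, n = 4), and the log2 fold change was 0.62 (95% interval −0.12 to 1.35, unadjusted p = 0.0921, adjusted p = 0.899 from limma). Without control ASO replicate 4 it was 0.94 (adjusted p = 0.806 from limma), the highest of the values with each liver left out, and the lowest was 0.44, without control ASO replicate 3. The adipocyte-defining genes *Adipoq* and *Lep* were listed at 0 in all 9 livers, and the 7 adipocyte markers summed to 5.79 to 43.9 and 7.52 to 37.9 normalized TPM in the treated and control groups, of which *Plin4* reached 39.3. Macrophage markers summed to 111 to 154 and 98.9 to 162 normalized TPM, none of the 9 tested had an unadjusted p under 0.05, and none of the 10 was at 0 in all livers. Endothelial markers summed to 187 to 449 and 224 to 424 normalized TPM, and none of the 10 had an unadjusted p under 0.05 or was at 0 in all livers.

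*Fabp5* (ENSMUSG00000027533), the epidermal form, showed the largest difference among the members and the smallest p. Its values were 5.17, 12.6, 10.9, 14.0 and 13.6 normalized TPM in apoC-III ASO livers. They were 26.1, 14.4, 22.8 and 32.8 in control ASO livers. Every treated liver was below every control, by a narrow gap between treated replicate 4 and control replicate 2. The mean was 11.2 ± 3.59 (SD, n = 5) against 24.0 ± 7.65 (SD, n = 4), 53.3% lower. The log2 fold change was −1.05 (SE 0.32, 95% interval −1.74 to −0.35), or 0.484-fold. It ranked at place 91 of 11968 genes by p (unadjusted p = 0.00649) and missed the threshold after Benjamini-Hochberg adjustment (adjusted p = 0.853 from limma). Groups that did not overlap, with treated livers lower, were found for 109 of the 11968 genes (0.911%), and in either direction for 1.83%. *Fabp5* was the one member of 9 with this pattern.

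The *Fabp5* difference depended on how the libraries were scaled. In TPM as deposited the groups overlapped, at 0.372 to 0.830 TPM in treated livers and at 2.10, 0.907, 1.20 and 0.316 TPM in controls, since control ASO replicate 4 had the lowest value of all before scaling and the highest after it. With that liver left out and the factors computed again, the log2 fold change was −0.89 (adjusted p = 0.837 from limma). In the normalized values given above, the 3 other controls stood above every treated liver. Whether the groups overlap after that refit or under the other rescalings was not examined. *Gm6166*, whose first coding bases are printed above, was listed above 0 in 2 livers, at no more than 0.185 TPM. With the 5 annotated copies of *Fabp5* added to the gene, the lowest treated liver stood at 7.75 in place of 5.17 normalized TPM, the log2 fold change was −0.95 (adjusted p = 0.815 from limma), and the groups still did not overlap. Among the other cell types of the liver, markers of stellate cells summed to 126 to 157 and 146 to 274 normalized TPM in treated and control livers. The 274 was control ASO replicate 4, and the other controls lay between 146 and 181. Of the 8 markers, 6 had a log2 fold change below 0 and 2 above, *Col3a1* (0.11) and *Col1a2* (0.06). *Lrat* and *Dcn* were lower at unadjusted p of 0.00510 and 0.0388 (adjusted p of 0.842 and 0.876 from limma). The tested macrophage markers had a log2 fold change above 0 for 6 and below 0 for 3 (median 0.14). Markers of cholangiocytes summed to 37.9 to 81.3 and 41.0 to 121 normalized TPM, and none of the 3 tested had an unadjusted p under 0.05. The part of these cells in the *Fabp5* values was not tested.

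**Figure D3:**
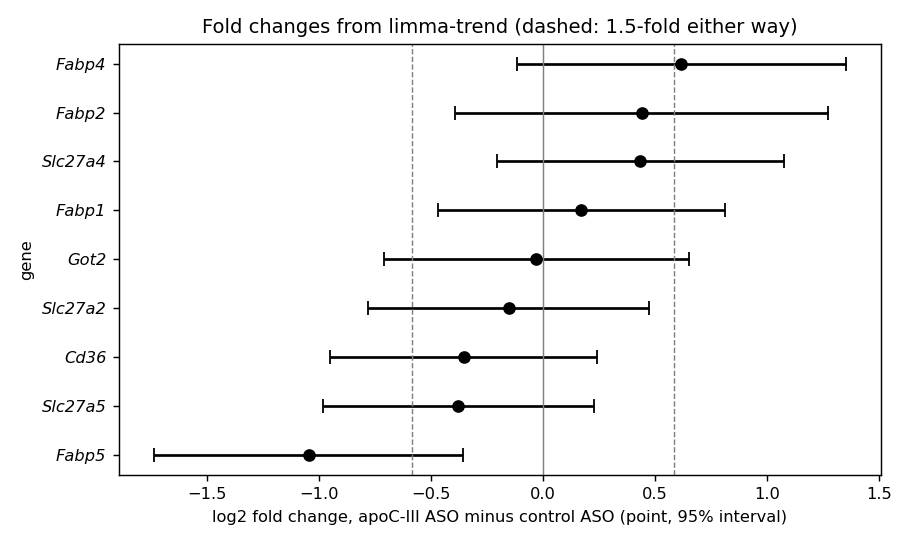
Log2 fold change of each gene (apoC-III ASO minus control ASO, horizontal axis) with its 95% interval from limma-trend, not adjusted for the number of genes; dashed lines mark 1.5-fold either way. The interval of Fabp5 alone lies to one side of 0, and every interval crosses a dashed line.

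The intervals set what these 9 livers could show. For none of the 9 members did the 95% interval lie within 1.5-fold of no change in both directions, as it did for 1082 of the 11968 genes. For 5 members, *Cd36*, *Slc27a2*, *Slc27a5*, *Fabp1* and *Got2*, it lay within 2-fold, as it did for 7474 of all genes tested. The upper bounds were highest for *Fabp4* (2.55-fold), *Fabp2* (2.42-fold) and *Slc27a4* (2.11-fold), and the lower bound was furthest from 1 for *Fabp5* (0.3001-fold). A missed threshold thus does not show that the groups were alike.

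Ratios of 2 genes in the same liver do not depend on how the library is scaled, and 4 were compared. The ratio of *Fabp5* to *Fabp4* was 0.277, 1.46, 0.758, 0.697 and 0.749 in apoC-III ASO livers. It was 2.85, 1.96, 3.55 and 1.69 in control ASO livers. *Fabp4* thus exceeded *Fabp5* in 4 of 5 treated livers and in no control, and the groups did not overlap, control ASO replicate 4 included. In that liver the ratio rests on 0.316 TPM of *Fabp5* and 0.187 TPM of *Fabp4* as deposited. *Fabp5* alone also separated the groups in normalized TPM, and how many other pairs of genes do so was not counted. The mean log2 ratio was −0.53 ± 0.86 (SD, n = 5) against 1.27 ± 0.49 (SD, n = 4), a difference of −1.80. The exact two-sided permutation test gave p = 0.0159, the smallest that 5 livers against 4 allow. After Benjamini-Hochberg adjustment over the 4 ratios it was 0.0635. A ratio that reached that smallest p alone could not pass 0.05 after this adjustment, so the adjusted value decides nothing here. When the livers were left out 1 at a time, the difference lay between −2.06 and −1.46.

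The other 3 ratios overlapped between the groups. *Slc27a5* to *Slc27a2*, the pair of FATPs typical of hepatocytes, had a median ratio of 0.318 in treated livers and 0.370 in controls (exact two-sided permutation p = 0.540, adjusted 0.540). *Slc27a4* to *Slc27a2* differed by 0.72 in mean log2 ratio (exact two-sided permutation p = 0.286, adjusted 0.540), and by 0.17 without control ASO replicate 4. *Fabp2* to *Fabp1* differed by 0.31 (exact two-sided permutation p = 0.413, adjusted 0.540).

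**Figure D4:**
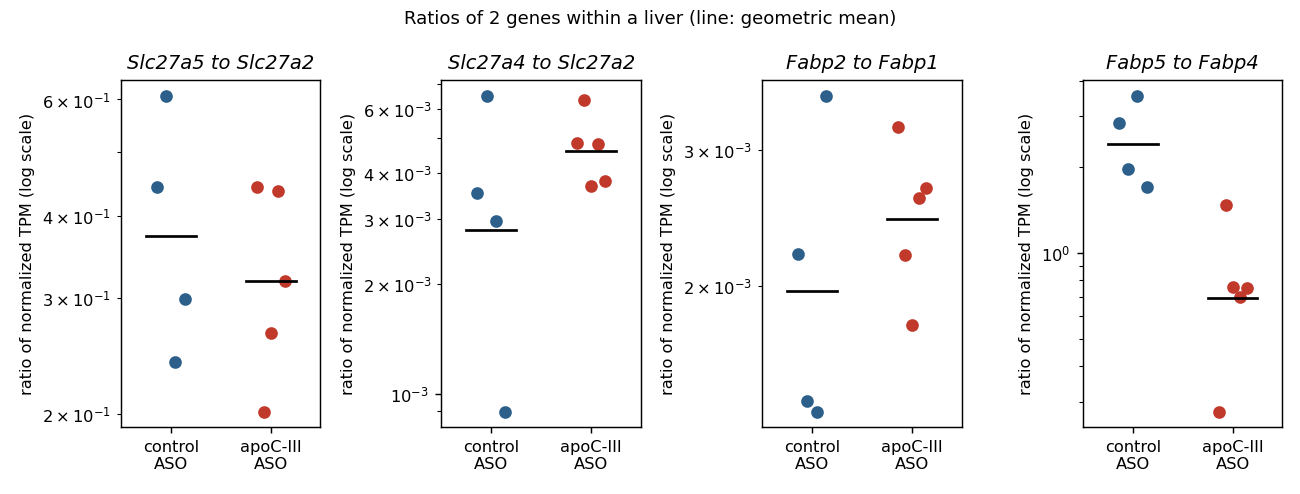
Ratio of 2 genes within each liver (log axes that differ between panels) for 4 control ASO livers (blue) and 5 apoC-III ASO livers (red), with the geometric mean as a line. Fabp5 to Fabp4 ranges from 1.69 to 3.55 in controls and from 0.277 to 1.46 in treated livers, and the other 3 ratios overlap.

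From liver to liver, the levels of some members varied together. Over the 36 pairs, Pearson's r of log2(normalized TPM + 1) across the 9 livers was above 0 for 25 and below 0 for 11. The share over pairs of genes in general was not computed, so these counts and values are not shown to be particular to the members. By r, the closest pair was *Cd36* and *Slc27a2*, with r = 0.91 (exact permutation p = 4.77e-04, adjusted 0.0172 over the 36 pairs) and Spearman's rho = 0.83 (exact permutation p = 0.00827, adjusted 0.0992). Without the 2 livers farthest from the median of *Cd36*, which were apoC-III ASO replicate 1 and control ASO replicate 4, r was 0.85, and after the group means were removed it was 0.93. By rank, the closest pair was *Fabp2* and *Fabp4*, with rho = 0.95 (exact permutation p = 3.53e-04, adjusted 0.0127) and r = 0.83 (exact permutation p = 0.00976, adjusted 0.0703), and r was 0.75 without the 2 livers farthest from the median of *Fabp2*. No pair passed 0.05 after adjustment by both measures. *Slc27a5* and *Got2* had r = 0.83 and rho = 0.85 (exact permutation p = 0.00661 and 0.00607, adjusted 0.0696 and 0.0992), and 0.73 without the 2 livers farthest from the median of *Slc27a5*.

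For *Slc27a4*, r was below 0 in 7 of its 8 pairs over all 9 livers but in 2 of 8 without control ASO replicate 4, rho was below 0 in 5 of 8, and no pair passed adjustment. The lowest r was that with *Cd36* (r = −0.52, exact permutation p = 0.152, adjusted 0.422; rho = −0.02, exact permutation p = 0.982), and it turned to 0.28 without the same 2 livers and to 0.38 without control ASO replicate 4 alone, so it rests on that liver. All levels of a liver share its library and its scaling factor.

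**Figure D5:**
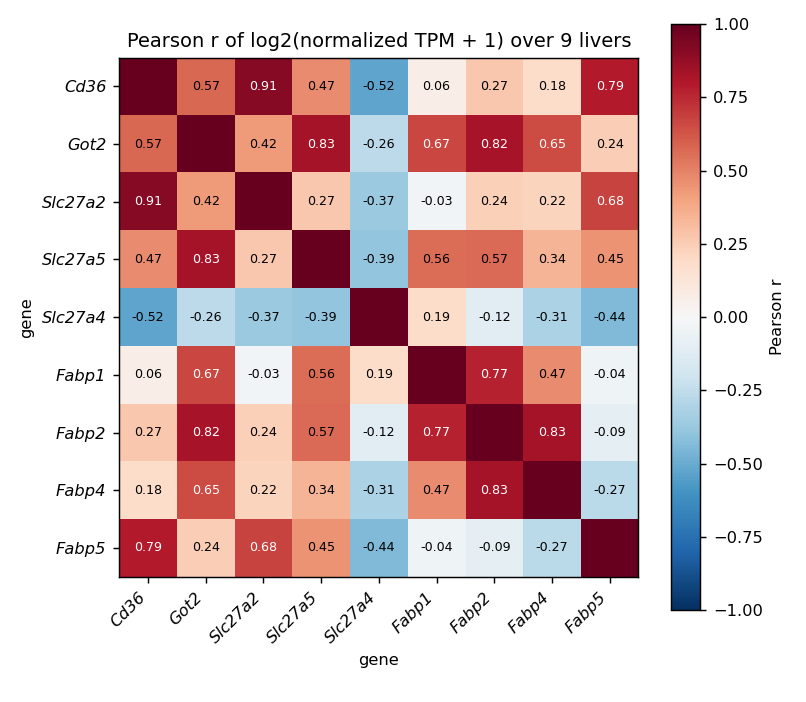
Pearson's r of log2(normalized TPM + 1) over 9 livers for each pair of the 9 genes (both axes list the genes; red above 0, blue below). The highest value is that of Cd36 with Slc27a2 (0.91), and 7 of the 8 values of Slc27a4 are below 0, against 2 of 8 when control ASO replicate 4 is left out.

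Among the 6537 other genes with a mean of at least 10 normalized TPM, those most like *Cd36* by Pearson's r over the 9 livers were *Amy1* (0.97), *Prodh* (0.96) and *Ttc38* (0.95). Most like *Slc27a5* were *Prdx6* (0.97), *Iah1* (0.97) and *Gnmt* (0.95), and most like *Fabp1* were *Kdelr2* (0.94), *Cox8a* (0.94) and *Fam173a* (0.93). These were picked as the highest of many and are given as a description. Without the 2 livers farthest from the median of the member, r stayed between 0.83 and 0.93 for the genes like *Cd36* and *Slc27a5*, and fell to 0.60 for *Fam173a* beside *Fabp1*.

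Other uptake and binding genes were looked up from lists. Of 12 such genes, 11 were listed under their symbols and 5 were tested, of which none was called, 3 had a log2 fold change above 0 and 2 below (median 0.00589, against −0.00127 over all genes tested). The smallest p belonged to *Scarb1*, the HDL receptor SR-BI, at 126 ± 31.0 (SD, n = 5) and 87.5 ± 20.7 (SD, n = 4) normalized TPM in apoC-III ASO and control ASO livers (log2 fold change 0.52, adjusted p = 0.883 from limma). *Fabp7*, the brain form, was found in all 9 livers at 3.71 to 14.7 normalized TPM, whereas *Fabp6* and *Fabp9* were listed at 0 in all 9 and *Fabp3*, the heart form, was above 0 in a single liver.

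Acyl-CoA synthetases and acyl-CoA binding proteins act on FAs right after entry. Of 16 genes, 14 were tested and none was called, with 7 log2 fold changes above 0 and 7 below (median −0.05). *Acsm3*, a medium-chain synthetase of mitochondria, had the smallest p, with means of 59.1 ± 36.4 (SD, n = 5) and 128 ± 119 (SD, n = 4) normalized TPM (adjusted p = 0.905 from limma). *Acsl1*, the main long-chain synthetase of the liver, had a log2 fold change of −0.19, and *Dbi*, the acyl-CoA binding protein, of 0.03.

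The 13 regulators, among them PPARs, RXRs and HNF4α, were all tested and none was called, with 8 log2 fold changes above 0 and 5 below (median 0.03). *Rxrb*, a partner of PPARs, had the smallest p, at 33.7 ± 7.82 (SD, n = 5) against 21.5 ± 6.004 (SD, n = 4) normalized TPM (log2 fold change 0.64, unadjusted p = 0.0245, adjusted p = 0.873 from limma). Its groups overlapped narrowly, at 28.6 to 47.4 in treated livers and 14.0 to 28.7 in controls. *Ppara* itself had a log2 fold change of −0.25 (unadjusted p = 0.450 from limma, a test across all genes).

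*Slc27a5* also belongs to bile acid metabolism. Of 10 genes of bile acid synthesis and amidation, all were tested and none was called, 3 had a log2 fold change above 0 and 7 below, and the median was −0.28. *Acox2*, a peroxisomal oxidase that shortens the bile acid side chain, stood at 224 ± 40.8 (SD, n = 5) and 155 ± 14.2 (SD, n = 4) normalized TPM (log2 fold change 0.51, unadjusted p = 0.0301, adjusted p = 0.876 from limma). *Baat*, the enzyme that takes over the CoA esters made by SLC27A5, had a log2 fold change of −0.36 (unadjusted p = 0.0938, adjusted p = 0.899 from limma).

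Clock genes vary with the hour of collection, and the hour is not given for each liver in the sources used here. Of 15 listed, 14 were tested and none was called, 3 had a log2 fold change above 0 and 11 below (median −0.31). At an unadjusted p under 0.05 stood *Arntl*, at 12.6 ± 12.3 (SD, n = 5) against 1.24 ± 0.891 (SD, n = 4) normalized TPM, with *Per2* at 16.4 ± 16.01 against 78.4 ± 48.8 and *Per3* at 16.3 ± 17.1 against 41.1 ± 23.0 (adjusted p from limma of 0.860, 0.860 and 0.876). The groups overlapped for each of these 3 genes. Their part in the members' values was not tested.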

How the data were processed

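Liver RNA of 9 mice was sequenced (single-end reads, stranded libraries depleted of ribosomal RNA). Values are TPM of each gene as the authors deposited them, tied by the submitters' processing notes to kallisto 0.43.1 and GRCm38; the methods of the study describe read counts from STAR and featureCounts, which were not used here. How transcripts were summed to genes is not given in the sources used here. TPM holds no depth, so no counting error can be given.

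Of 51912 Ensembl identifiers, 51719 were found in GENCODE M21. TPM of the 21857 nuclear protein-coding genes was brought to a sum of 1000000 in each liver and divided by median-of-ratios factors, and the 11968 with a mean of at least 1 were tested. log2(normalized TPM + 1) was compared between the groups with limma 3.58.1 in R 4.3.3 (lmFit, eBayes with trend), without covariates, and p-values were adjusted over all genes tested by the Benjamini-Hochberg method. Fold changes are on this scale, which understates those of low genes. Genes were called at an adjusted p under 0.05 where the change exceeded 1.5-fold. The fit was tested on simulated data in which sets of 50 genes were changed 1.5-, 2-, 4- or 8-fold. It called 0, 12, 43 and 47 of them, and made 2 false calls among the other genes. In this simulation no change of 1.5-fold was called, and most of those of 2-fold were missed. A call also needs an estimate over 1.5-fold, so genes changed exactly 1.5-fold can fail for that reason alone. The changed genes were drawn from those with higher levels, so levels as low as that of *Slc27a4* were not covered. All sets were changed at once, which affects the adjustment, so the counts need not hold for the real comparison. Ratios and correlations were tested with exact permutation tests in scipy 1.17.1. Copies were sought with blastn 2.17.0 (at least 90% identity over at least 100 bases). Tables and plots were made in Python 3.11.15 (pandas 2.3.3, numpy 2.4.6, matplotlib 3.10.9).

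The members, the gene and marker lists, the 4 ratios and the main scaling were chosen with earlier results of these data known. The text names all members, *Apoc3*, the genes of each list with an unadjusted p under 0.05 (or the smallest p where there was none), and the 3 genes most like *Cd36*, *Fabp1* and *Slc27a5*. Of the copies and overlapping genes it names *Gm6166*, *Got2-ps1* and *Gm26697* and not the others. *Anpep*, *Acsl1*, *Dbi*, *Ppara*, *Baat*, *Fabp7* and the markers named were chosen after their values were seen. Replicate numbers were not taken to pair the livers, and the labels do not say whether they do. TPM as deposited, other scalings, pseudocounts, filters and eBayes settings, array weights, a replicate block and each liver left out were tried as alternatives.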

Additional observations from a re-analysis of the deposited data

Results flagged for a closer look

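In apoC-III ASO livers, *Fabp1* was flagged because 1 liver lay far from the others of its group by Dixon's test. Replicate 4 stood at 11110 normalized TPM, while the other 4 treated livers lay between 4561 and 5708, and its gap to the nearest of them was 0.825 of the range of the group. Of 20 groups of livers examined for the 9 members and *Apoc3*, 1 was flagged, and chance flags about 1 in 20.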

How the results depend on the processing

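No member was called under any of the alternatives run, and *Fabp4*, *Fabp2* and *Slc27a4* stayed above 0 and *Fabp5* below 0 in every alternative in which they could be tested (18 to 21 each). *Fabp5* ranged from −1.26 to −0.60 and its adjusted p from 0.460 to 0.9996 (limma). In TPM as deposited, and with factors over all genes, these 4 genes had a mean under 1 and were not tested. The sign of *Slc27a2* turned with TPM as deposited (0.18), without factors (0.33), with quantile normalization (0.12) and without control ASO replicate 4 (0.0454; −0.39 to 0.0454 over the livers left out), and that of *Got2* with the same settings (0.24, 0.45, 0.0731 and 0.18), with array weights (0.0216) and without apoC-III ASO replicates 2 (0.0718) and 3 (0.13; −0.20 to 0.18 over the livers left out). Without factors, *Cd36* (0.11) and *Slc27a5* (0.10) also turned, while the median of all genes moved to 0.41; with TPM as deposited it moved to 0.11. *Fabp1* turned without apoC-III ASO replicate 4 (−0.0495; −0.0495 to 0.26 over the livers left out) and in TPM as deposited with control ASO replicate 4 left out (−0.19). Leaving out each liver moved the ratio of *Slc27a5* to *Slc27a2* between −0.44 and 0.0111 (reversed without control ASO replicate 2). It moved *Slc27a4* to *Slc27a2* between 0.17 and 1.12, *Fabp2* to *Fabp1* between 0.14 and 0.59 and *Fabp5* to *Fabp4* between −2.06 and −1.46. No adjusted p fell under 0.05. With 1 liver left out, the smallest p of the exact permutation test was 0.0286 or 0.0357. A ratio alone at that p could not pass after adjustment.

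*Apoc3* stayed below 0 throughout, with an adjusted p of 0.104 (log2 fold change −2.62) in TPM as deposited. Over all genes, 11 were called in TPM as deposited (5 higher, 6 lower, none of them *Apoc3*), 4 with control ASO replicate 4 also left out, and 1 each without factors, without a filter and without a trend. Leaving out each liver gave 1 to 3 calls: 1 without apoC-III ASO replicates 1, 2 or 4 or control ASO replicates 1 or 3, and 3 without apoC-III ASO replicate 5 or control ASO replicate 4. The exact permutation test per gene called 0, where the smallest p it can give is 0.0159; 621 genes had an unadjusted p under 0.05, against 667 with limma. With a replicate block, 3 genes and 0 members were called (*Fabp5* −1.13, adjusted p = 0.554 from limma). Same-numbered livers correlated at 0.0673, 0.119, 0.0280 and 0.190, and the numbers were not taken to pair them. Livers of unlike number were not compared in this way, so pairing was not tested. Summing all transcript copies was chosen after seeing the data. For the other alternatives that moved a value, the cause was not tested. Depth is unknown and its limits could not be given.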
